A study of Mus musculus with 8 samples.

Results

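Immediate early genes are the 10 genes Fos, Fosb, Jun, Junb, Egr1, Ier2, Ier5, Nr4a1, Nr4a2 and Atf3, taken by name from a table of 19857 genes, all 10 of which had a row in it. They were measured in bulk RNA from the tongues of 12-month-old female mice. Mice heterozygous for the A17 allele of Pabpn1 (A17/+, 4 mice) were compared with wild type mice (WT, 4 mice). A17/+ mice are used as a model of oculopharyngeal muscular dystrophy, in which an expanded alanine stretch in PABPN1, a nuclear protein that binds poly(A) tails, is followed by weakness of the eyelid, throat and tongue muscles. The labels give the allele and the age, and do not give the strain or how the allele was made.

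Immediate early genes are switched on within minutes of a stimulus, before any new protein has to be made. Growth factor, calcium and stress signals reach them through kinases of the MAP kinase family and through transcription factors such as SRF and CREB. Many of their mRNAs carry AU-rich stretches in the 3' untranslated region and are degraded fast, so their level follows recent signalling. In skeletal muscle they respond to contraction and injury, and in any tissue they respond to handling during collection. The products are mainly transcription factors. FOS and JUN proteins pair to form AP-1, and EGR1 and the NR4A receptors act on other sites.

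The libraries were made by a 3'-end method with unique molecular identifiers (UMIs), so a count stands for a tagged RNA molecule. Totals ran from 395061 to 485326 counts in A17/+ and from 205696 to 465014 in WT. Levels are given in CPM, counts scaled to a common library size over the genes tested, with the TMM correction for composition. A single count was worth 2.23 to 2.85 CPM in A17/+ and 2.23 to 5.42 CPM in WT, and 3 counts, the most that a count of 0 allows, were 6.69 to 8.55 CPM in A17/+ and 6.69 to 16.3 CPM in WT (counting error only). The libraries numbered 1 stood apart from the others of their genotypes. On the first principal component A17/+ 1 lay at 4.27 and the other A17/+ libraries at 27.0 to 30.7, whereas WT 1 lay at −7.21 and the other WT libraries at −35.8 to −19.8. On the second component A17/+ 1 lay at 18.4 and WT 1 at 19.6, and the other libraries at −25.8 to 5.05. WT 1 also held 923 counts of lingual salivary gland genes, against at most 20 in any other library. Pabpn1 itself averaged 22.7 ± 7.37 CPM in A17/+ and 24.8 ± 9.92 CPM in WT (SD, n = 4 each; two-sided exact permutation p = 0.714), and 3'-end counts do not read the altered stretch.

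None of the immediate early genes passed the test between the genotypes, in which 8.94% of the 5066 genes tested were called, and only 3 of the 10 could be tested. The 3 with the most counts, Jun, Ier5 and Nr4a2, had lower means in A17/+ than in WT, at 0.554, 0.317 and 0.449 times the WT mean, and their adjusted p in edgeR's quasi-likelihood test lay between 0.0588 and 0.0733. The other 7 had too few counts for that test. The entry of Ier5 and Nr4a2 into the test rested on WT, so nothing is read from the direction the 3 shared. Of the 660 counts of all 10 genes over the 8 libraries, 73.3% belonged to Jun, Ier5 and Nr4a2. The RNA came from sections of the middle of the tongue, which hold muscle, epithelium, vessels and nerve, so fewer cells of a type and less RNA per cell cannot be told apart.

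**Figure D1:**
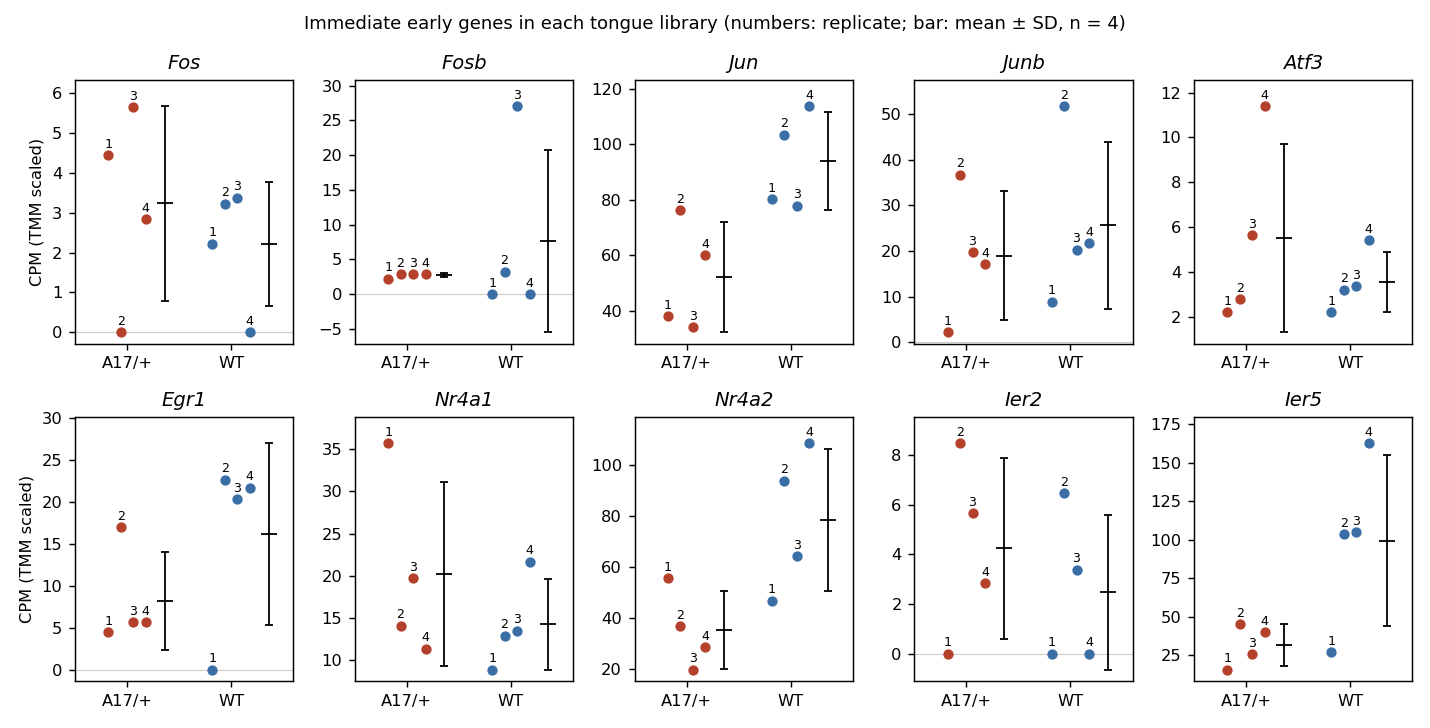
Level of each immediate early gene in CPM (TMM scaled, y axis, a separate scale for each gene) in the 4 A17/+ and the 4 WT libraries. Points are libraries labelled by replicate number and bars give the mean ± SD (n = 4). The 4 A17/+ values of Jun (33.9 to 76.3 CPM) lie below the 4 WT values (77.8 to 114 CPM), and the groups of the other 9 genes overlap.

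Jun encodes the main DNA-binding partner within AP-1. It had 17, 27, 12 and 21 counts in A17/+ 1 to 4, and 36, 32, 23 and 21 counts in WT 1 to 4. These were 37.9, 76.3, 33.9 and 59.9 CPM in A17/+, against 80.2, 103, 77.8 and 114 CPM in WT. All A17/+ values lay below all WT values, and A17/+ 2 was close to WT 3. The mean was 52.0 ± 19.8 CPM in A17/+ and 93.8 ± 17.6 CPM in WT (SD, n = 4 each; two-sided exact permutation p = 0.0286, the smallest that 70 assignments allow). The edgeR log2 fold change was −0.84 (SE 0.28, 95% interval −1.43 to −0.24), with an adjusted p of 0.0733 over 5066 genes. Jun has a single exon of 3189 nt on mm10 chromosome 4 (95049034 to 95052222, minus strand). The antisense gene Junos overlaps its 5' part by 689 nt, away from the 3' end, and held at most 2 counts in any library.

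Ier5 encodes a nuclear protein that binds the heat shock factor HSF1. It had 7, 16, 9 and 14 counts in A17/+ 1 to 4, and 12, 32, 31 and 30 counts in WT 1 to 4. In CPM these were 15.6, 45.2, 25.4 and 39.9 in A17/+, against 26.7, 103, 105 and 163 in WT. WT 1 lay inside the A17/+ range, and the other WT libraries were each more than 2 times the highest A17/+ value. Ier5 averaged 31.5 ± 13.5 CPM in A17/+ and 99.4 ± 55.7 CPM in WT (SD, n = 4 each; two-sided exact permutation p = 0.0857). The edgeR log2 fold change was −1.58 (SE 0.48, 95% interval −2.62 to −0.53), with an adjusted p of 0.0588. The gene is a single exon of 3276 nt on chromosome 1 (155096361 to 155099636, minus strand).

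Nr4a2, or NURR1, is an orphan nuclear receptor that binds DNA without a known hormone. It had 25, 13, 7 and 10 counts in A17/+ 1 to 4, and 21, 29, 19 and 20 counts in WT 1 to 4. Its levels were 55.7, 36.7, 19.8 and 28.5 CPM in A17/+, against 46.8, 93.7, 64.3 and 108 CPM in WT. The groups overlapped in the libraries numbered 1 only: A17/+ 1 was above WT 1. The mean was 35.2 ± 15.3 CPM in A17/+ and 78.3 ± 27.9 CPM in WT (SD, n = 4 each; two-sided exact permutation p = 0.0571). The edgeR log2 fold change was −1.05 (SE 0.34, 95% interval −1.78 to −0.33), with an adjusted p of 0.0635. It lies on chromosome 2 (57106830 to 57124003, minus strand).

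Summed over the libraries, the unscaled counts of these 3 genes were also smaller in A17/+, whose libraries were deeper on average. Jun summed to 77 counts in A17/+ and 112 in WT, Ier5 to 46 in A17/+ and 105 in WT, and Nr4a2 to 55 in A17/+ and 89 in WT. Of all genes tested, edgeR called 6.34% higher and 2.61% lower in A17/+, and none of the 3 was among them. All 3 had an unadjusted p under 0.05, as did 25.1% of all genes tested. The 3 do not stand for the whole family. The count filter asked for 24.6 CPM of the library total in at least 4 libraries, which Jun reached in 4 A17/+ and 4 WT libraries, but Ier5 and Nr4a2 in only 2 A17/+ libraries and in 4 WT libraries, so their entry rested on WT and nothing is read from the direction they shared. Jun was the only member whose genotypes did not overlap, against 14.6% of all genes tested.

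The calls depended on the libraries and on the scaling. Without WT 1 all 3 genes passed, with adjusted p of 0.0415 for Jun, 0.00183 for Ier5 and 0.0198 for Nr4a2. That fit called 16.3% of all genes tested, against 8.94% in the reported fit. Without A17/+ 1, Ier5 (0.0451) and Nr4a2 (0.00896) passed, and without A17/+ 2, Jun did (0.0258). Of all genes tested, 14% were called without A17/+ 1 and 10.1% without A17/+ 2. Without any of the other 5 libraries none of the 3 passed, and their adjusted p ran up to 0.216 for Jun (without A17/+ 3). Those fits called only 3.74% to 6.01% of all genes tested, so the members' calls rose and fell with those of all genes. With library totals in place of TMM all 3 passed, while the median log2 fold change of all genes moved from 0.01 to −0.11 and 11.2% of them were called. DESeq2 called Ier5 only (0.0106), and 8.55% of all genes tested. The log2 fold change was negative under every alternative tried: −1.07 to −0.63 for Jun over 20 alternatives, −1.995 to −1.33 for Ier5 over 19 and −1.61 to −0.87 for Nr4a2 over 20. The alternatives share their libraries, so the common sign is not independent evidence.

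**Figure D2:**
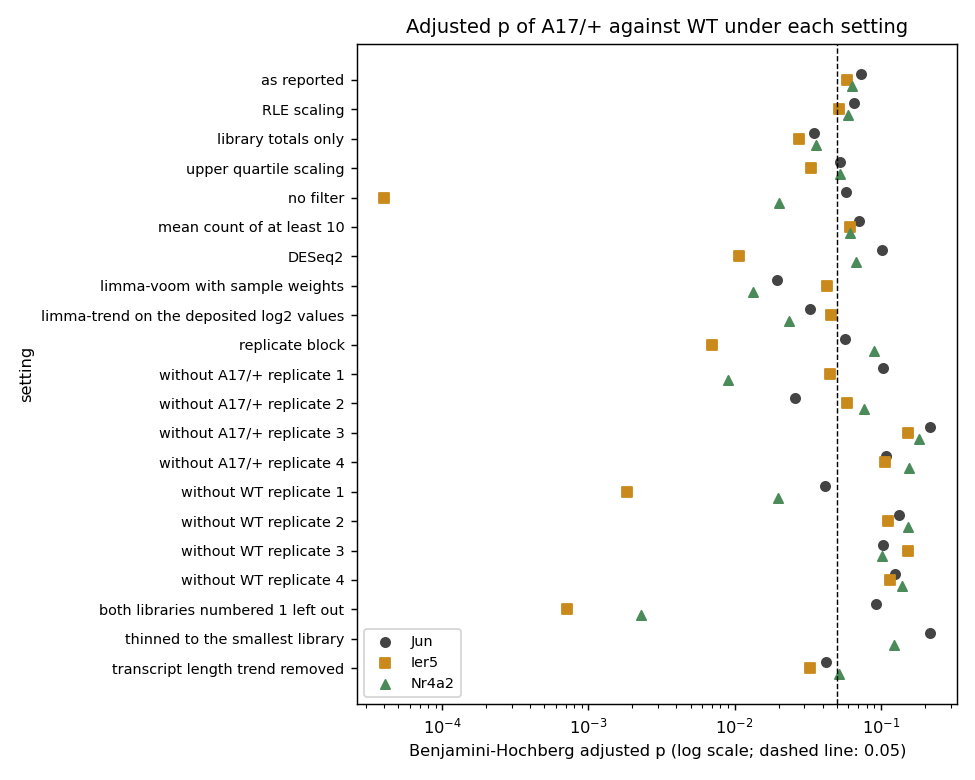
Adjusted p of Jun, Ier5 and Nr4a2 for A17/+ against WT (x axis, log scale) under the reported fit and each alternative (y axis). The dashed line marks 0.05. The reported values, 0.0733, 0.0588 and 0.0635, lie just right of the line, and the values for the same gene fall on both sides of it.

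Junb encodes a JUN family member that often acts against JUN in proliferating cells. It had 1, 13, 7 and 6 counts in A17/+ 1 to 4, and 4, 16, 6 and 4 counts in WT 1 to 4, and averaged 19.0 ± 14.1 CPM in A17/+ and 25.7 ± 18.3 CPM in WT (SD, n = 4 each; two-sided exact permutation p = 0.543). The library numbered 2 was the highest of each genotype. The 3' end of Junb on chromosome 8 overlaps that of Prdx2, a peroxiredoxin on the other strand, by 351 nt. Prdx2 had 8, 49, 29 and 36 counts in A17/+ 1 to 4, and 9, 7, 5 and 2 counts in WT 1 to 4. The sources used here do not say whether counting used strand, so the assignment of reads at that end, and with it the level of Junb, is uncertain.

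Fos and Fosb encode the proteins that pair with JUN. Fos, the best known immediate early gene, had 2, 0, 2 and 1 counts in A17/+ 1 to 4, and 1, 1, 1 and 0 counts in WT 1 to 4. No library held more than 2 molecules of it, so its level was at or under the detection floor in both genotypes. Fosb had 1 count in each A17/+ library, and 0, 1, 8 and 0 counts in WT 1 to 4. WT 3 held 8 of its 13 counts. The exact permutation p (two-sided) was 0.514 for Fos and 0.886 for Fosb. Fos lies on chromosome 12 (85473890 to 85477273, plus strand) and Fosb on chromosome 7 (19302696 to 19310051, minus strand).

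Atf3, a basic leucine zipper factor induced by stress and muscle injury, had 1, 1, 2 and 4 counts in A17/+ 1 to 4, and 1 count in each WT library. Ier2, a nuclear protein with a growth factor response, had 0, 3, 2 and 1 counts in A17/+ 1 to 4, and 0, 2, 1 and 0 counts in WT 1 to 4. Atf3 lies on chromosome 1 (191170296 to 191218039, minus strand) and Ier2 on chromosome 8 (84661331 to 84662852, minus strand). A difference in either gene was not detectable at this depth (two-sided exact permutation p = 0.571 for each).

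Egr1, a zinc finger factor induced through SRF, had 2, 6, 2 and 2 counts in A17/+ 1 to 4, and 0, 7, 6 and 4 counts in WT 1 to 4. In CPM it was 4.46, 16.9, 5.65 and 5.70 in A17/+, against 0, 22.6, 20.3 and 21.7 in WT. WT 1, in which it was not detected, lay below every A17/+ library, and the other WT libraries lay above them. The means were 8.19 ± 5.87 CPM in A17/+ and 16.2 ± 10.8 CPM in WT (SD, n = 4 each; two-sided exact permutation p = 0.314).

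Nr4a1, or NUR77, the closest relative of Nr4a2, had 16, 5, 7 and 4 counts in A17/+ 1 to 4, and 4 counts in every WT library. A17/+ 1 held 16 of its 32 counts in A17/+. It averaged 20.2 ± 10.9 CPM in A17/+ and 14.3 ± 5.35 CPM in WT (SD, n = 4 each; two-sided exact permutation p = 0.429). Without A17/+ 1, the remaining A17/+ libraries, at 11.4 to 19.8 CPM, lay inside the WT range of 8.91 to 21.7 CPM. Nr4a1 lies on chromosome 15 (101254269 to 101274795, plus strand).

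With no filter on low counts, edgeR gave an estimate for every member. The log2 fold change was below 0 for 6 of 10 and above 0 for 4 of 10, where 44.2% of all 19857 genes were below 0. The median was −0.69 for the members, most of them with few counts, against 0.15 for all genes. Ier5 (−1.63, adjusted p = 4.03e-05) and Nr4a2 (−1.10, adjusted p = 0.0202) passed in that fit, in which 1.2% of all genes were called lower, and Jun did not (−0.90, adjusted p = 0.058). Fosb had −1.42, Egr1 −0.88, Junb −0.50, Fos 0.36, Ier2 0.59, Nr4a1 0.60 and Atf3 0.60, each with a 95% interval that held 0. The interval ran from −3.25 to 0.41 for Fosb, from −1.83 to 2.54 for Fos, from −1.42 to 0.42 for Junb and from −0.43 to 1.63 for Nr4a1.

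**Figure D3:**
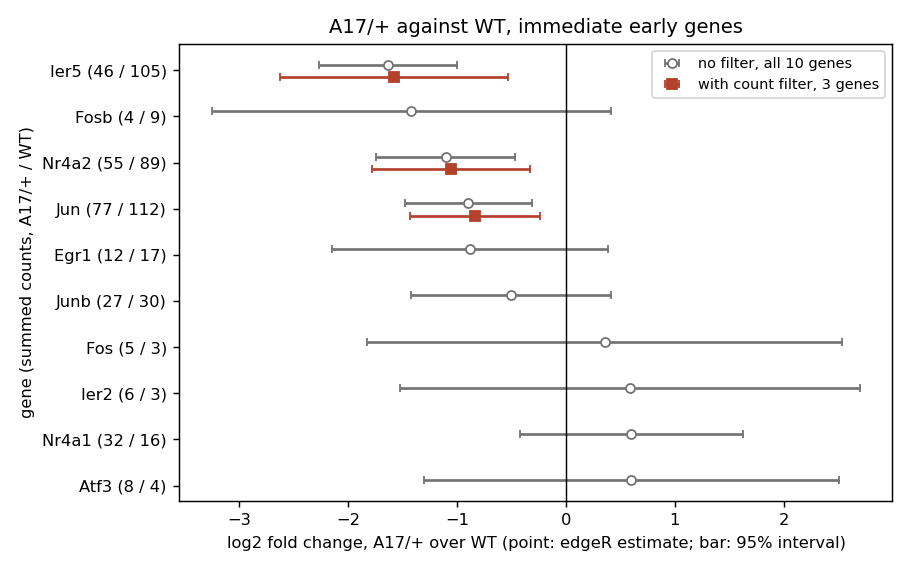
Log2 fold change of A17/+ over WT (x axis) with its 95% interval for each immediate early gene (y axis, with summed counts in A17/+ and in WT). Filled squares give the fit with the count filter and open circles the fit without it. The intervals of Ier5, Nr4a2 and Jun lie below 0, and those of the other 7 genes include 0.

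The 10 genes together had 72, 85, 51 and 64 counts in A17/+ 1 to 4, and 79, 125, 100 and 84 counts in WT 1 to 4. Their sum was 161, 240, 144 and 182 CPM in A17/+, against 176, 404, 338 and 455 CPM in WT. WT 1 fell inside the A17/+ range and the other WT libraries were above it. The mean sum was 182 ± 41.9 CPM in A17/+ and 343 ± 121 CPM in WT (SD, n = 4 each), a ratio of 0.529. Most of that gap lay in Jun, Ier5 and Nr4a2, which summed to 119 ± 33.2 CPM in A17/+ and 272 ± 96.8 CPM in WT (ratio 0.437). The other 7 genes summed to 63.1 ± 13.9 CPM in A17/+ and 71.9 ± 35.8 CPM in WT (ratio 0.878), with overlapping ranges. This split follows the count filter, which Ier5 and Nr4a2 passed through WT. The next values are for all 10 genes. The ratio was 0.455 without WT 1, and 0.473 to 0.594 without any 1 of the other libraries.

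Within a genotype, Ier5 varied most of the 3 genes tested. The biological coefficient of variation in edgeR, the spread between animals beyond counting error, was 40.6% for Ier5, against a trend of 21.7% at its level. It was 25.9% for Nr4a2 (trend 21.5%) and 21.1% for Jun (trend 22.2%). edgeR draws each gene's estimate toward that trend, so closeness to the trend is partly built in. The SD of log2 CPM within groups was 0.83 for Ier5, larger than that of 97.2% of all genes tested, 0.52 for Nr4a2 (79.9%) and 0.39 for Jun (56.3%). On the log2 scale WT 1 lay 1.47 below the WT mean for Ier5, 0.61 below it for Nr4a2 and 0.19 below it for Jun. WT 4, the smallest library, was the highest of WT for all 3. In A17/+ the order differed between the genes: A17/+ 2 was highest for Jun and Ier5, and A17/+ 1 was highest for Nr4a2 and lowest for Ier5.

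**Figure D4:**
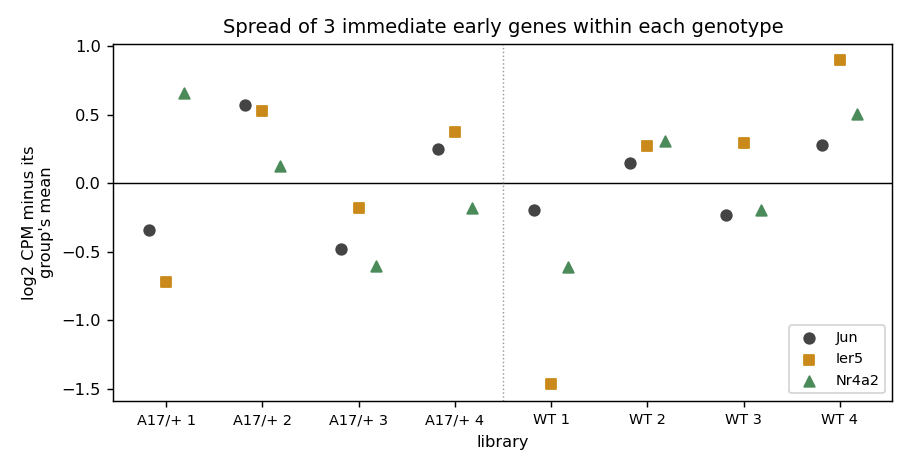
Log2 CPM of Jun, Ier5 and Nr4a2 in each library minus the mean of its genotype (y axis) for A17/+ 1 to 4 and WT 1 to 4 (x axis). The lowest point is Ier5 in WT 1, at −1.47, and the 3 genes do not share an order within A17/+.

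After removal of each genotype's mean, Pearson's r over the 8 libraries was 0.63 between Jun and Ier5, 0.39 between Ier5 and Nr4a2 and 0.37 between Jun and Nr4a2. These values share library depth and are given as a description. The genes whose centred pattern was most like the mean of the 3 were Igsf3 (r = 0.98), Dhx8 (0.97), Adamts6 (0.97), Lce1i (0.97) and Lgals8 (0.97), over 8 libraries. They were picked for the highest r among the genes tested, with predicted and unnamed genes left out. Picking from so many genes over 8 libraries makes r high in itself, so nothing is read from these values. Igsf3 is an immunoglobulin family membrane protein, Dhx8 a splicing helicase, Adamts6 a metalloprotease, Lce1i a cornified envelope protein and Lgals8 a galectin. Igsf3 had 12, 12, 6 and 11 counts in A17/+ 1 to 4, and 6, 9, 7 and 7 counts in WT 1 to 4. None of the 5 was called, and the smallest adjusted p was 0.0891, for Dhx8 (log2 fold change −0.77).

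The DNA just before the start of Jun, Ier5 and Nr4a2 is shown because these genes held most of the counts, with that of Fos for comparison. Each line gives 150 bases, 5' to 3' on the strand of the gene, up to the base before the start that RefSeq annotates on GRCm38.p6, the assembly of mm10. They lie at chr4:95052223-95052372 (minus strand, Jun), chr1:155099637-155099786 (minus strand, Ier5), chr2:57124004-57124153 (minus strand, Nr4a2), chr12:85473740-85473889 (plus strand, Fos). Capitals mark the GC box GGGCGG, the CRE core TGACG and the TATA box TATAAA, on either strand.
Jun: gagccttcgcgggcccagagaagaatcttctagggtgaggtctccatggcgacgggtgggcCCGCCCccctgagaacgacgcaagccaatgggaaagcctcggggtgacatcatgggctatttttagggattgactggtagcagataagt
Ier5: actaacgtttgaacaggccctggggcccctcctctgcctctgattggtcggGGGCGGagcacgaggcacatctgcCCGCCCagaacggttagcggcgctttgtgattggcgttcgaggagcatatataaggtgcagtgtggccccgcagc
Nr4a2: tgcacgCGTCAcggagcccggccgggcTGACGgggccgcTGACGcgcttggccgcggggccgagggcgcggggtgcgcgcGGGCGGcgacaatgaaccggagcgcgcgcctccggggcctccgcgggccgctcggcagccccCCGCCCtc
Fos: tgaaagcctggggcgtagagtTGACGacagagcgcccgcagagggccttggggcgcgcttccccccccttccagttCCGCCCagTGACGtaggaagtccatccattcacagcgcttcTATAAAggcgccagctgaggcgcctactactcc

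All windows of 250 bases before to 50 after the start were searched on both strands, and 8 of the 10 members had one. Egr1 and Ier2 were not among them. The GC box was in 7 of 8 members' windows and in 35.7% of all 32851 windows. TGACG, the core of the site (CRE) that CREB binds, was in 6 of 8 (Atf3, Fos, Fosb, Junb, Nr4a1 and Nr4a2) and in 20.8% of all windows. Jun and Ier5 held a GC box and neither TGACG nor TATAAA, whereas Nr4a2 and Fos held all 3, the TATAAA of Nr4a2 upstream of the bases printed. The string TATAAA was in 3 of 8 and in 13.6% of all windows. It was counted at any place and on either strand, so a match need not be a working TATA box. In Fos it lay at −33 on the plus strand, in Junb at the start itself and in Nr4a2 at −164 on the minus strand. The printed bases of Ier5 hold TATATAA, which the exact string does not match. The full CRE, TGACG followed by TCA, which holds TGACG on both strands (1.79% of all windows), the AP-1 site TGANTCA (7.81%) and the CArG box that SRF binds (1.63%) were in none of the 8. Sites more than 250 bases before the start and sites with other bases were not searched. The absence therefore does not say that these genes lack sites for CREB, AP-1 or SRF. No motif set Jun, Ier5 and Nr4a2 together apart from the other members.

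AU-rich destabilising elements were counted in the 3' untranslated regions of the longest coding transcripts, a search chosen after the values were seen. The pentamer ATTTA occurred in 9 of 10 members, the exception being Ier2, and in 68.2% of 19745 genes. Jun held 4 copies, Nr4a2 held 3 and Ier5 held 2, or 3.24, 2.26 and 0.933 per kb, against a median of 1.35 per kb over all genes. Nr4a1 (5.52 per kb) and Fos (4.91 per kb) had the highest densities of the members. The longer TATTTAT was in 5 of 10 members (Fos, Fosb, Jun, Nr4a2 and Atf3) and in 29.1% of all genes.

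Further genes of the immediate early response were read from lists written with earlier results of these data known. Of the other AP-1 and related leucine zipper genes 5 of 15 could be tested, and 0 were called. Mafg, a small MAF protein, had a log2 fold change of −0.23 (edgeR adjusted p = 0.745). Of the other early transcription factors 5 of 18 could be tested and 0 were called, where 8.94% of all genes tested were called. Klf4, an epithelial factor, had 123 ± 60.0 CPM in A17/+ and 190 ± 53.0 CPM in WT (SD, n = 4 each; log2 fold change −0.65, edgeR adjusted p = 0.208), and Bhlhe40 had −0.34 (adjusted p = 0.527). The median log2 fold change was 0.01 for the first list and −0.08 for the second, against 0.01 for all genes tested.

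Of the induced feedback regulators 4 of 26 could be tested, and 2 of them were higher and 0 lower in A17/+ (median 0.49), where 6.34% of all genes tested were higher and 2.61% lower. Nfkbia, the inhibitor of NF-kappaB that NF-kappaB itself induces, had 13, 27, 22 and 16 counts in A17/+ 1 to 4, and 5, 4, 4 and 2 counts in WT 1 to 4. It rose to 53.2 ± 20.5 CPM in A17/+, against 12.1 ± 1.32 CPM in WT (SD, n = 4 each; log2 fold change 2.08, SE 0.40, edgeR adjusted p = 0.00553), and passed under all 19 alternatives. Gadd45g, a stress and growth arrest gene, had 16, 26, 17 and 21 counts in A17/+ 1 to 4, and 7, 7, 9 and 6 counts in WT 1 to 4 (log2 fold change 1.15, edgeR adjusted p = 0.0468). Gadd45g passed under 6 of 19 alternatives, was not called without any 1 of the libraries except A17/+ 1, and had a log2 fold change of 0.41 with the transcript length trend removed (adjusted p = 0.473). Nfkbia lay under the cutoff of the count filter in every WT library, and Gadd45g lay under it in some of them. Both reached it in every A17/+ library, so their entry into the test rested on A17/+. Nothing is therefore read from the direction they shared or from the median of this list. Dusp1, Zfp36 and Btg2, the usual feedback genes of this response, had at most 14, 9 and 13 counts in any library and were not tested.

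Of the induced secreted and effector genes 3 of 16 could be tested and 0 were called (median 0.34). Thbs1, a matrix glycoprotein, had a log2 fold change of 0.56 (adjusted p = 0.200) and Ccn2, the matrix protein also called CTGF, had −0.50 (adjusted p = 0.236). Of the upstream transcription factors and coactivators 8 of 17 could be tested, with 1 higher and 0 lower (median 0.35). For all genes tested 6.34% were higher and 2.61% lower, and the median log2 fold change was 0.01. Mef2c, a muscle transcription factor, rose to 638 ± 94.5 CPM in A17/+, against 432 ± 58.1 CPM in WT (SD, n = 4 each; log2 fold change 0.56, edgeR adjusted p = 0.0416). Mef2c passed under 8 of 20 alternatives and was not called without A17/+ 1, A17/+ 3, A17/+ 4, WT 2, WT 3 or WT 4, with adjusted p of 0.0730 to 0.171. Srf, with at most 4 counts in any library, was not tested. Of the upstream kinases 14 of 20 could be tested and 0 were called (median 0.23): Map2k4, which activates the JUN kinases, had −0.52 (adjusted p = 0.0639) and Map2k2 had 0.71 (adjusted p = 0.170). Of the genes for proteins that bind AU-rich mRNA or act in mRNA decay 15 of 19 could be tested and 0 were called (median −0.13). Hnrnpd, the AU-rich element binding protein AUF1, had −0.78 (adjusted p = 0.0540) and Exosc10 had 0.83 (adjusted p = 0.220). Batf, Egr4, Npas4 and Il6 were not analysed here.

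Markers of other cell types also differed between the genotypes, and their part in the values above was not tested. Tongue epithelium, with 12 of 12 markers measured, summed to 10600 to 20857 CPM in A17/+ and to 14767 to 16548 CPM in WT, and 1 marker was higher and 2 were lower in A17/+. Skeletal muscle, with 10 of 10 markers, summed to 110632 to 132097 CPM in A17/+ and to 86321 to 116922 CPM in WT, and 4 markers were higher and 0 lower. Schwann cell and nerve markers summed to 203 to 254 CPM in A17/+ and to 64.3 to 130 CPM in WT, and red blood cell markers to 100 to 1333 CPM in A17/+ and to 20.1 to 32.3 CPM in WT. Endothelial markers summed to 647 to 678 CPM in A17/+ and to 572 to 612 CPM in WT, and leukocyte markers to 415 to 539 CPM in A17/+ and to 183 to 441 CPM in WT. The summed level of fibroblast markers was 1215 to 2306 CPM in A17/+ and 944 to 1257 CPM in WT, and that of smooth muscle and pericyte markers 1692 to 2480 CPM in A17/+ and 1209 to 1709 CPM in WT. Among the tested markers of these lists 3 of 8 for fibroblasts, 2 of 6 for smooth muscle and 1 of 3 for Schwann cells were higher, and 0 of 8 for endothelium and 0 of 3 for leukocytes. The only red blood cell marker tested was also higher, and it passed the count filter through A17/+ only. The Schwann cell marker called and the epithelial marker called higher lay under the filter's cutoff in most WT libraries. Both reached it in every A17/+ library, so their entry also rested on A17/+. Nothing is read from the direction of these markers. Of all genes tested, 6.34% were higher and 2.61% lower. No measured marker of these lists was at 0 in all libraries, and Cd3e and Slc4a1 were not analysed here.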

How the data were processed

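RNA from 8 tongues was sequenced with mcSCRB-seq, a 3'-end method with well barcodes and UMIs, per the labels' protocols. The submitters' processing notes name build mm10, STAR 2.7.5a, HTSeq, UMI-tools 1.1.1 and, besides these, cutadapt 2.10; settings, strand and annotation are not given in the sources used here. The authors deposited raw counts per Ensembl gene, and a log2 value per library for 10709 genes, whose order equals that of the counts in each library (Spearman's rho 1) and which serve 1 alternative only. Symbols came from GENCODE M21 (19675 of 19857 identifiers).

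The deposited counts were fitted with edgeR 4.0.16 (R 4.3.3): filterByExpr (minimum count 10, total 15; 5066 genes kept), TMM, robust quasi-likelihood test of genotype, Benjamini-Hochberg over all genes tested, threshold 0.05. Standard errors and 95% intervals come from the F statistic. Single levels were compared by two-sided exact permutation over 70 assignments, unadjusted over the 10 members. The scripts were tested on simulated data.

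Alternatives were other scalings and filters, DESeq2 1.42.0, limma 3.58.1, the replicate block and leaving out libraries; thinning to the smallest library, removal of a transcript length trend by loess and the leave-one-out ratios of the sum were added after seeing the data. Named genes are the members, up to 4 called genes of each list or else the 2 with the smallest p, and the 5 genes most like the members. A gene that this rule named is not reported here. Members and lists were chosen with earlier results of these data known. The mice are separate animals per the labels, and within a group every pair of libraries differed by more than counting noise (chi-square per degree of freedom 1.41 to 6.34).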

Additional observations from a re-analysis of the deposited data

Results flagged for a closer look

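Of 22 sets of 4 libraries examined (the 10 genes and their sum in each genotype), 4 had a library far from the other 3 by Dixon's 95% criterion. Chance meets it in about 1 of 20 sets of normally distributed values. All 4 were sets of Egr1 or Fosb, whose few counts are not so distributed, so 4 of 22 is not read as an excess. Egr1 had 16.9 CPM (6 counts) in A17/+ 2, where the other A17/+ libraries held 2 counts each. It had 0 CPM in WT 1, where the other WT libraries held 4 to 7 counts. Fosb had 2.23 CPM in A17/+ 1, which is 1 count as in the other A17/+ libraries, so that only the scaling sets this library apart. Fosb had 27.1 CPM (8 counts) in WT 3, where the other WT libraries held at most 1 count.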

How the results depend on the processing

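The log2 fold changes of Jun, Ier5 and Nr4a2 were negative under each alternative that gave one (20, 19 and 20), while their size and their side of the threshold moved: −1.07 to −0.63 for Jun, −1.995 to −1.33 for Ier5 and −1.61 to −0.87 for Nr4a2. The alternatives refit the same libraries, and the entry of Ier5 and Nr4a2 into the reported test rested on WT. Nothing is therefore read from the shared sign. Against 0 of 3 members called in the reported fit, library totals, sample-weighted limma-voom and a threshold of 0.1 called 3 of 3. Of all genes tested these called 11.2%, 16.4% and 15.3%, against 8.94% in the reported fit. Limma-trend on the deposited values called 3 of 6 members and 7.44% of all genes. Leaving out both libraries numbered 1 and removal of the length trend called 2 of 3, where 20.9% and 9.96% of all genes were called. No filter called 2 of 10, where 4.3% of all genes were called. Upper quartile scaling, DESeq2 and the replicate block called 1 of 3, where 10.2%, 8.55% and 8.09% of all genes were called. Leaving out single libraries called 0 to 3 of 3, where 3.74% to 16.3% of all genes were called. The cause was not tested. Relative log expression and a mean count of at least 10 called 0 of 3, and thinning called 0 of 2, since Ier5 fell under the filter after it. These called 9.4%, 10.6% and 11% of all genes tested. Over all genes the 453 calls became 853 with no filter, 829 with limma-voom, 797 with limma-trend, 1025 without both libraries numbered 1, 775 at a threshold of 0.1 and 210 to 890 without single libraries. The labels do not say whether replicate numbers pair the animals, and they were not used as pairs: deviations of equal-numbered libraries correlated at −0.16 to 0.07, and no A17/+ library correlated best with the WT library of its number, although both libraries numbered 1 lay together on the second principal component. With that block Ier5 had a log2 fold change of −1.56 (edgeR adjusted p = 0.00695), and Gadd45g (0.0562) and Mef2c (0.0568) were not called. Depth limits the 7 sparse members, of which only Nr4a1, Junb and Egr1 reached more than 20 counts over all libraries.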

Other observations

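Heat shock genes, which like immediate early genes respond to acute stress, had means on both sides of WT, and all 6 of the list are given. Hspa1b, an inducible HSP70 gene, averaged 14.3 ± 7.53 CPM in A17/+ and 30.1 ± 12.2 CPM in WT (SD, n = 4 each). Its near-identical copy Hspa1a averaged 8.90 ± 3.97 CPM in A17/+ and 15.03 ± 11.5 CPM in WT (SD, n = 4 each), so the assignment of reads between them is uncertain, and both were under the count filter. Dnajb1, an HSP40 cochaperone, averaged 29.6 ± 6.78 CPM in A17/+ and 47.5 ± 12.1 CPM in WT (log2 fold change −0.70, edgeR adjusted p = 0.171). Hspa8, the constitutive HSP70, averaged 889 ± 97.7 CPM in A17/+ and 600 ± 176 CPM in WT (log2 fold change 0.55, edgeR adjusted p = 0.0698). Hspb1, a small heat shock protein, averaged 118 ± 66.3 CPM in A17/+ and 57.1 ± 16.9 CPM in WT (SD, n = 4 each; log2 fold change 1.01, edgeR adjusted p = 0.126), and Hsph1, an HSP110 chaperone, 88.5 ± 19.8 CPM in A17/+ and 127 ± 19.7 CPM in WT (SD, n = 4 each; log2 fold change −0.51, edgeR adjusted p = 0.174). None of the 4 tested genes of that list was called by edgeR. All 4 had an unadjusted p under 0.05, as did 25.1% of all genes tested.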
